A study of Mus musculus with 12 samples.

Results

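Transcripts of mouse dendritic cells after 24 h with γ-PGA nanoparticles were compared with those of the cells at 0 h, the start of the exposure. The comparison was chosen by sample title, with 3 samples at 24 h and 3 at 0 h of 12 in the series, and it took in every gene that passed the filter on array background, 18407 in all, of which 11580 carried a gene symbol. The cells came from the marrow of female mice aged 6 to 8 weeks. They were grown with GM-CSF, a growth factor for myeloid cells, at 20 ng/ml, fed on day 3 and collected on day 7 as immature dendritic cells, by loose or absent adherence and without a sort for a surface marker. All samples, those at 0 h included, share this culture. The other 6 samples were taken after 6 or 12 h with the particles, 3 at each time. γ-PGA, poly(γ-glutamic acid), is a biodegradable polymer that bacteria make, and particles of it at 300 µg/ml were the only agent. For strain and genotype, nothing is given in the sources used here. In its design text the series speaks of 3 independent experiments, and the p-values below measure the spread between these samples only. No culture kept for 24 h without particles was among the samples, so exposure and time in culture cannot be told apart.

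Dendritic cells take up particles and microbes, sense them through Toll-like and other receptors, and mature. In maturation NF-κB and interferon programmes switch on cytokine and chemokine genes, costimulatory molecules come to the surface, capture of new antigen slows, and CCR7 directs the cell to lymph nodes. The early inflammatory transcripts of this response decay within hours in most cells, while markers of the mature state last longer.

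A table and a set of scanner files carry the same sample labels, and at 24 h they went apart. The deposited value table holds, for each probe, the ratio to the median of its own 3 values at 0 h. Every level below is such a ratio, so levels of different genes are not compared. A gene was called when limma's Benjamini-Hochberg adjusted p over all genes was under 0.05 and the change was at least 2-fold, with n = 3 at each time. At 24 h against 0 h the table gave calls for 4835 genes, 26.3% of those tested, with 2448 higher (13.3%) and 2387 lower (13%). With quantile normalization 3167 were called, 1412 of them higher. The median change was 0.12 on the log2 scale. Counts of list members against 0 h are to be read beside the 13.3% higher and 13% lower of all genes. The scanner files hold the spot intensities of arrays with the same labels. In them 154 genes were called (0.837%), 128 higher (0.695%) and 26 lower (0.141%), and leaving out 1 array lowered the count each time. It was 48, 46 and 38 without 0 h replicates 1, 2 and 3, and 38, 24 and 29 without 24 h replicates 1, 2 and 3. Of the genes called in both sources, 12 were higher in both, none were lower in both, 14 were higher in the table and lower on the scanner, and 27 the reverse. At an unadjusted limma p under 0.05 the table had 13738 genes and the scanner 3740, in both directions together.

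The arrays labelled 24 h resembled those labelled 0 h. Their scaled log2 intensities correlated at 0.99 to 0.992 with the arrays at 0 h, at 0.92 to 0.926 with those at 6 h and at 0.907 to 0.913 with those at 12 h. In the table the log2 ratios of the 24 h columns correlated at 0.884 to 0.913 with the 12 h columns. The change at 24 h correlated between the sources at -0.075. These are correlations across 18407 genes, which are not independent replicates, and they describe likeness only. Replicates were close in each source, with a median SD of a gene on the log2 scale of 0.065 at 24 h in the table and 0.053 on the scanner. The scanner values therefore do not check the table's changes at 24 h. Results are those of the table, and every gene list named here was also counted on the scanner, where no member was called in either direction except Gzmb, a cytotoxic granule protease (1 of 15 T, B and natural killer cell markers, higher). Which samples the arrays and the columns labelled 24 h hold was not tested.

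**Figure D1:**
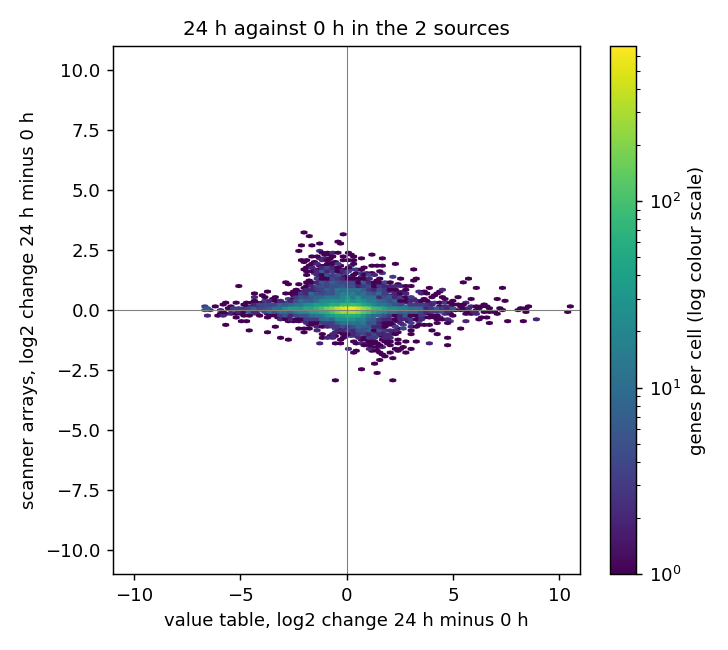
Log2 change at 24 h against 0 h for 18407 genes, in the value table (horizontal) and on the scanner arrays (vertical), on equal axes; colour gives the number of genes per hexagon on a log scale. The cloud is wide along the table axis, out to 10.53, and narrow along the scanner axis, out to 3.23, and it does not follow a diagonal.

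The arrays lay on 3 slides. All arrays at 0 h were on the first, with 1 array at 6 h, and all arrays at 24 h were on the third, with 1 array at 12 h, so no slide held both groups. With slide as a block, linked only through the 6 and 12 h samples, 4878 genes were called in the table, of which 60% were higher, and 3753 of the 4835 calls were kept in the same direction. On the scanner the same block gave 23 calls and kept 2 of the 154. Spots well above background made up 55.7%, 54.5% and 52.1% on the arrays at 0 h. On the arrays at 24 h they made up 59.6%, 58.3% and 56.6%, so the groups did not overlap.

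A list of CXC chemokines, most of which draw neutrophils, showed some of the largest rises. All 6 tested members of that list were called higher, with a median log2 change of 5.51. Cxcl15 did not pass the background filter, and without that filter 6 of 7 were called higher, with a median of 4.42. Cxcl5 stood at ratios of 1338, 1219 and 1346 at 24 h and at 1, 1.20 and 0.701 at 0 h, a rise of 10.43 ± 0.157 on the log2 scale (SE, limma adjusted p = 7.73e-12). Its probe was well above background on 2 of 3 scanner arrays at 0 h, and those of the other tested members on all 3. The 24 h columns lay together, far above all columns at 0 h. Of all genes, 44.4% had every 24 h column above every 0 h column and 33.7% had every one below. Cxcl1 stood at 161.6, 149.5 and 168.2 against 1, 0.801 and 5.58. The third column at 0 h was high, and the log2 rise of 6.60 ± 0.57 ranged from 5.63 to 7.48 over the other settings and left-out columns. Cxcl3 rose 104-fold and Cxcl2 21.4-fold. Ppbp, the precursor of the platelet chemokine CXCL7, rose 19.9-fold. Pf4, platelet factor 4, which is also on the list of erythroid and megakaryocyte markers, rose 5.52-fold. Cxcl1, Cxcl2 and Cxcl3 had already stood higher at 12 h, with mean ratios of 529, 78.9 and 266, and each was called lower at 24 h than at 12 h.

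Promoters of Cxcl1, Cxcl2, Cxcl3 and Il6 are shown because they are textbook targets of NF-κB. The bases are 110 to 11 before the RefSeq start site on GRCm38.p6, printed 5′ to 3′ along the gene, and all lie on the plus strand. Capitals mark matches to an NF-κB site, read as GGG, any 2 bases and TTTCC, searched on both strands.
Cxcl1, chr5:90891135-90891234: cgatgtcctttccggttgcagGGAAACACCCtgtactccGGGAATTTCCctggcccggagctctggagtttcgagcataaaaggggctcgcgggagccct
Cxcl2, chr5:90903789-90903888: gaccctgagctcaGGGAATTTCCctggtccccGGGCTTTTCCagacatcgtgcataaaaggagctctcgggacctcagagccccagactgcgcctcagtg
Cxcl3, chr5:90785991-90786090: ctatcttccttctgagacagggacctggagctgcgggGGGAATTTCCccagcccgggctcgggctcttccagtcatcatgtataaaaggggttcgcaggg
Il6, chr5:30013004-30013103: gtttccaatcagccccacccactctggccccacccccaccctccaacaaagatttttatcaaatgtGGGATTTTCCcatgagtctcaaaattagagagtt
The match GGGAATTTCC begins 71, 97 and 73 bases before the start sites of Cxcl1, Cxcl2 and Cxcl3, and the match of Il6 begins 44 bases before its start. The motif was found in 1.63% of all 32841 promoter windows, which run from 250 bases before to 50 after a start site. It was in 2.99% of the windows of genes called higher and in 1.4% of those called lower. No match was found for Cxcl5, Ppbp or Pf4, the other tested chemokines of that list. A match describes letters and does not show binding.

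Among inflammatory cytokines 12 of 23 tested members rose and 1 fell, with a median log2 change of 1.70. With quantile normalization 11 were called higher, with a median of 0.89. Probes of 16 of the 23 were well above background on all 3 scanner arrays at 0 h. Il6, which drives acute inflammation and T-cell help, stood at 21.9, 20.8 and 23.6 against 1, 0.952 and 1.03, a rise of 4.47 ± 0.0696 (SE, limma adjusted p = 8.83e-12). Tnf, an early inflammatory mediator, stood at 4.20, 4.08 and 4.50 against 1, 0.995 and 1.08, a rise of 2.06 ± 0.0553. In both genes every column at 24 h lay above every column at 0 h. Il12a, a subunit of interleukin-12, rose by 4.72, Il1a by 4.14, Il1b by 2.69 and the type I interferon gene Ifnb1 by 3.23 on the log2 scale. At 0 h the probe of Il12a was well above background on 2 of 3 scanner arrays and those of Il6, Tnf, Il1a, Il1b and Ifnb1 on all 3. Il1rn, the natural blocker of the interleukin-1 receptor, rose by 1.85. Osm, a cytokine of the interleukin-6 family, was the one called lower, by 2.16. Against 12 h the list held 10 members called lower and none higher, beside 3.17% of all genes called lower and 1.4% higher in that comparison. The scale of the columns bears on that direction, since with median centring 377 genes were lower and 420 higher, against 584 and 257 as deposited. Tnf had stood at a mean ratio of 38.0 ± 0.949 (SD) at 6 h and 19.7 ± 0.708 at 12 h, against 4.26 ± 0.218 at 24 h. Il6 had stood at 104 ± 5.99 and 75.8 ± 4.48, against 22.1 ± 1.42.

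The other chemokines moved in both directions, with 6 of 17 higher and 3 lower. Ccl5, which attracts T cells, rose 22.5-fold, and Ccl22, a ligand of CCR4 made by dendritic cells, rose 5.45-fold. Ccl17, the other CCR4 ligand, stood at 0.0795, 0.0813 and 0.0774 against 1, 0.930 and 1.10, a fall of 12.7-fold (log2 change -3.67 ± 0.0664, limma adjusted p = 2.32e-11). Its 3 values at 24 h differed by little and lay far below those at 0 h, although at 6 h its mean ratio had been 1.09. Cxcl10, an interferon-induced T-cell attractant, was 2.87-fold above 0 h, having stood at a mean ratio of 113 at 6 h. Cxcl9, which also attracts T cells, was not called, at 1.45, 0.893 and 1.87, after mean ratios of 95.8 at 6 h and 30.4 at 12 h.

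Most genes of a list of NF-κB targets, subunits and feedback inhibitors rose. Of 22 tested, 16 were called higher, none lower and 6 in neither direction, with a median log2 change of 1.55. Traf1, a signalling adaptor induced by NF-κB, rose 13.4-fold, Tnfaip3, the A20 brake on NF-κB, 7.36-fold, and Relb, the subunit of the alternative pathway, 5.33-fold. Nfkbia, the classical inhibitor, had a log2 change of 0.85 and Nfkb1 one of 0.33, and neither was called. With quantile normalization 12 members were called. Of 18 promoter windows of the members called higher, 6 held the NF-κB motif (33.3%, against 1.63% of all windows). These lists were written with NF-κB targets in mind, so this share describes the list. Against 12 h, 6 of the 22 were called lower and none higher, beside 3.17% of all genes lower, a share that depends on the scale of the columns.

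In Toll-like receptor signalling 7 of 21 were called higher and none lower. Tlr1, a partner of TLR2, rose 8.94-fold, Irak3, an inhibitor of the pathway, rose by 2.29 on the log2 scale, and Cd14, the lipopolysaccharide co-receptor, by 1.98. Tlr2 stood at 2.07, 2.04 and 2.10, a change of 1.02 that was not called with median centring (0.93), with quantile normalization (0.69) or without 0 h replicate 2 (0.99). Tlr4 stood at 1.16, 1.11 and 1.15 and was not called. Myd88, the shared adaptor, stood at 0.677, 0.693 and 0.706 and was not called either.

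Maturation genes divided. Of 21 tested, 10 were called higher and 2 lower, with a median of 0.60. Cd200, an inhibitory surface glycoprotein, stood at 60.5, 58.0 and 60.9 against 1, 0.975 and 1.01, a rise of 5.91 ± 0.0543 (SE, limma adjusted p = 5.29e-13). Ccr7, the lymph node homing receptor, stood at 7.50, 7.85 and 8.69 against 0.994, 1 and 1.13, a rise of 2.94 ± 0.0688. The actin-bundling gene Fscn1 rose 10.8-fold, the antigen uptake receptor gene Ly75 10.3-fold, and Cd83, a marker of mature dendritic cells, 5.33-fold. Cd274, encoding the checkpoint ligand PD-L1, rose by 2.16 on the log2 scale. Cd80 and Cd86, the ligands of CD28, were not in that group. Cd86 stood at 1.19, 1.31 and 1.26 and Cd80 at 0.561, 0.573 and 0.638, and neither was called against 0 h. Cd86 had stood at a mean ratio of 5.36 at 6 h and 2.64 at 12 h, and it was called lower at 24 h than at 12 h. Icosl, which costimulates T cells through ICOS, fell by 1.41, but by 0.87 and below the threshold with quantile normalization. Neither Cd40 nor Il12b is analysed here.

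**Figure D2:**
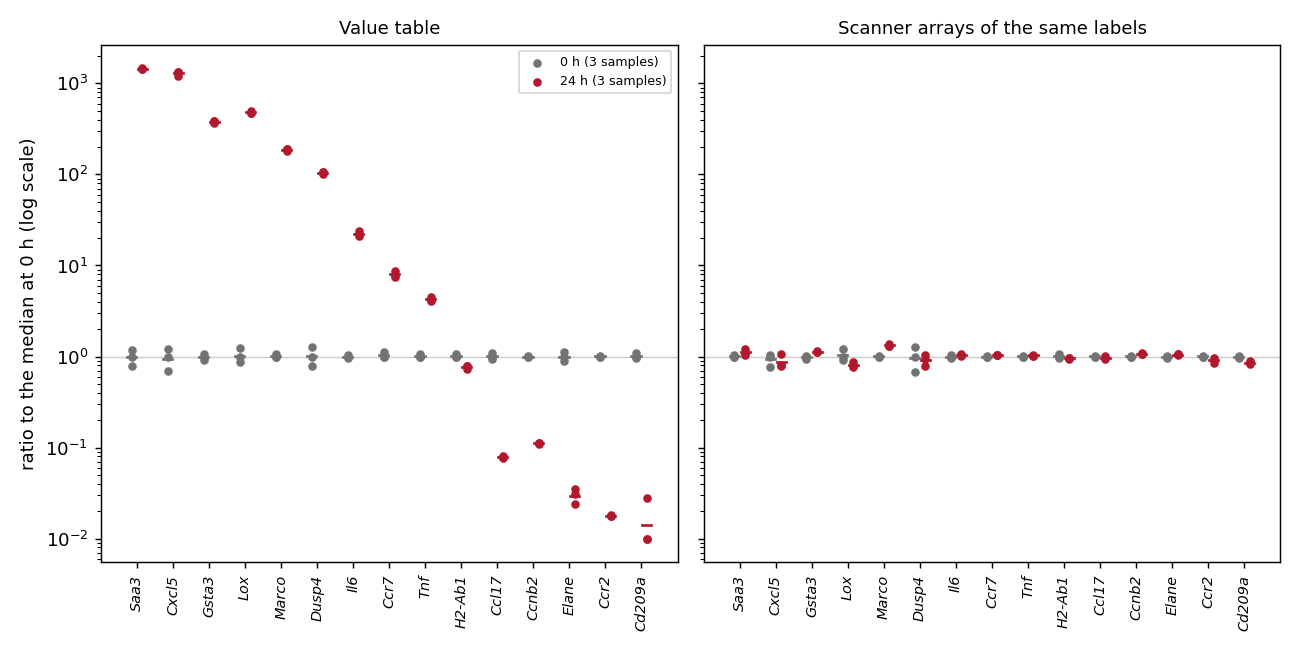
Ratio to the median at 0 h (log axis) for 15 genes in each of 3 samples at 0 h (grey) and 24 h (red), from the value table (left) and the scanner arrays (right); bars mark geometric means. In the table Saa3 reaches 1422 to 1470 and Cd209a comes down to 0.01 in 2 columns, while the scanner points of both times lie near 1.

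Type I interferon response genes moved in both directions. Of 26 tested, 4 were called higher and 6 lower, with a median of -0.12, beside 13.3% of all genes higher and 13% lower. That median was 0.05 with slide as a block, where 7 were called higher. With quantile normalization 3 were called higher, and with the mean over the probes of a gene 2. Rsad2, encoding the antiviral enzyme viperin, stood at 9.45, 7.82 and 8.30 against 1.01, 0.918 and 1, a rise of 3.12 ± 0.0946. Isg15, a ubiquitin-like protein, stood at 1.62, 1.40 and 1.48 and was not called. Oas2 fell by 1.98, Oas3 by 1.94 and Ifi44 by 2.13 on the log2 scale. Against 6 h, 19 of the 26 were called lower and none higher, beside 8.63% of all genes called lower in that comparison. Rsad2 had stood at 105 ± 10.0 (SD) and Isg15 at a mean of 14.7 at that time.

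Guanylate-binding and immunity-related GTPases, which interferon-γ induces against intracellular microbes, were all 12 called lower than at 6 h, beside 8.63% of all genes. Against 0 h, 2 were called higher and 2 lower, beside 13.3% of all genes higher and 13% lower. With median centring 4 were called lower. Gbp2 stood at 3.07, 2.90 and 3.21 and Gbp7 at 0.0787, 0.0702 and 0.0821, both against values near 1. The members of 1 gene family thus lay on opposite sides of the start, Gbp2 2.98-fold above and Gbp7 12.6-fold below (limma adjusted p = 1.25e-08 and 1e-10). Their promoters are shown because both hold the core of an interferon-stimulated response element, read as GAAA, any 2 bases and GAAA, searched on both strands and set in capitals, here as its reverse complement. Bases run from 110 to 11 before the start site, GRCm38.p6, plus strand.
Gbp2, chr3:142620553-142620652: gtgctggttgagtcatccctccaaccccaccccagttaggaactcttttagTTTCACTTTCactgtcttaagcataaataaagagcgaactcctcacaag
Gbp7, chr3:142530226-142530325: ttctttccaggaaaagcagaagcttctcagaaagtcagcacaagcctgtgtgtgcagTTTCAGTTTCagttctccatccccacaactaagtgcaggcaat
The match begins 59 bases before the start of Gbp2 and 53 before that of Gbp7. The core was in 80% of the 10 windows of this list, in 50% of the 28 windows of the type I interferon list and in 3.44% of all windows. It was in 3.9% of windows of genes called higher at 24 h and in 3.46% of those called lower.

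Effector and acute-phase products held the largest change of all named genes. Saa3, an acute-phase apolipoprotein made by macrophages and other cells, stood at 1422, 1436 and 1470 against 1.19, 1 and 0.780, a rise of 10.53 ± 0.13 on the log2 scale (SE, limma adjusted p = 2.01e-12). All columns at 24 h lay within a narrow range, above mean ratios of 296 at 6 h and 1060 at 12 h. Saa1, a close paralog, rose by 6.64, and how far the probes tell the paralogs apart was not tested. With the mean over its probes the change of Saa1 was 3.24. Of 22 tested members of the list, 14 rose and 3 fell. Cfb, complement factor B, rose 36.5-fold, Sod2, the mitochondrial superoxide dismutase, 8.40-fold, and Ido1, which degrades tryptophan, 6.23-fold. Ptgs2, the inducible cyclooxygenase, stood at 23.1, 23.6 and 25.6 after a mean of 234 at 6 h. Its probe was not well above background on any scanner array at 0 h, so no fold is given. Nos2, the inducible nitric oxide synthase, stood at 2.21, 2.78 and 2.26 with the same limit at 0 h, and its change of 1.24 was 0.80 and not called with quantile normalization. The markers of alternative activation Arg1, Chil3 and Retnla fell by 1.68, 1.67 and 2.48. The probe of Retnla was saturated on all scanner arrays at 0 h.

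A list of genes of NRF2 and general antioxidant defence, against oxidants and electrophiles, was the list with the most members called higher. Its members Sod2 and Hmox1 are also on the list of effector and acute-phase products. Of 22 tested, 18 rose and none fell, with a median log2 change of 2.87, and 17 or 18 were called under every other setting. Gsta3, a glutathione transferase, stood at 391, 362.8 and 386.9 against 1.06, 1 and 0.927, a rise of 8.58 ± 0.0687 (SE, limma adjusted p = 4.89e-13). The columns did not overlap, and the rise had continued from means of 66.2 at 6 h and 226 at 12 h. Slc7a11, the cystine importer, rose 30.2-fold, Me1, malic enzyme, 33.2-fold, Srxn1, sulfiredoxin, 20.6-fold, and Nqo1, a quinone reductase, 20.4-fold. Hmox1, heme oxygenase, rose 11.3-fold, and Gclm, which sets the pace of glutathione synthesis with Gclc, rose 8.97-fold. Keap1, the repressor of NRF2, had a change of -0.29 and was not called. Gsta1 stood at 417.3, 369.5 and 378.5, but Gsta1 and Gsta2 are near-identical genes, Gsta1 was above background on 1 of 3 arrays at 0 h and Gsta2 on none.

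Promoters of 4 of these genes are printed because they carry the core of an antioxidant response element, TGACNNNGC, searched on both strands. Bases 170 to 71 before the start site are given (GRCm38.p6, plus strand), with the core or its reverse complement in capitals. Prdx1, Gclm and Txnrd1 were chosen after their values were seen.
Gsta3, chr1:21240415-21240514: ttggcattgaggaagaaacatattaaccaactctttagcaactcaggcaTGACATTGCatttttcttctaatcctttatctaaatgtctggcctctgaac
Prdx1, chr4:116685429-116685528: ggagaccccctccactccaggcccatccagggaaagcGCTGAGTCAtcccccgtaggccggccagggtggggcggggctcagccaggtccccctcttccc
Gclm, chr3:122245387-122245486: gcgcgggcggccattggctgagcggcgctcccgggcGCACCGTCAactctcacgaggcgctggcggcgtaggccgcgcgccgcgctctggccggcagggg
Txnrd1, chr10:82859036-82859135: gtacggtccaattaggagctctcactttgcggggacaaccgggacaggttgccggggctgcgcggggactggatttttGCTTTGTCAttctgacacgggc
The peroxiredoxin gene Prdx1 rose 10.7-fold and the thioredoxin reductase gene Txnrd1 6.58-fold. The core was in 8 of 19 windows of the members called higher (42.1%), in 14.1% of windows of all genes called higher, in 16% of those called lower and in 12.4% of all windows. It was in 34.6% of the windows of all tested members, so the share describes the list. The letters of the match in Prdx1 also contain an AP-1 site, TGANTCA, which stood in 7.81% of all windows.

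Lipid and lysosome genes moved one way where they were called. Of 24 genes of lysosomal enzymes and membranes, 14 rose and none fell, with a median of 1.12. Ctsk, the collagen-degrading cathepsin K, stood at 29.3, 27.9 and 29.6 against 1, 0.873 and 1.04, a rise of 4.90 ± 0.0912. Those columns lay above the means of 4.06 at 6 h and 12.1 at 12 h, and Ctsk was called higher than at 12 h. Cd63, a membrane protein of late endosomes, rose 5.25-fold. Against 6 h, 5 of the 24 were called higher and none lower, beside 6.63% of all genes called higher in that comparison. Of 18 genes of lipid handling 8 rose and none fell, among them the fatty acid binding protein genes Fabp4 (12.2-fold) and Fabp5 (10.7-fold), and Nr1h3, the oxysterol sensor LXRα (8.14-fold). Fabp5 lost its call with slide as a block (log2 change 2.82, limma adjusted p = 0.0511). Of 24 genes of sterol and fatty acid synthesis 11 rose and none fell, all of them by less than 1.5 on the log2 scale, but only 2 were called with quantile normalization. Oxidative phosphorylation had 1 member of 25 called, Sdhb, and glycolysis 2 of 22, Pfkfb3 higher by 2.74 and Pfkp lower by 1.25.

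**Figure D3:**
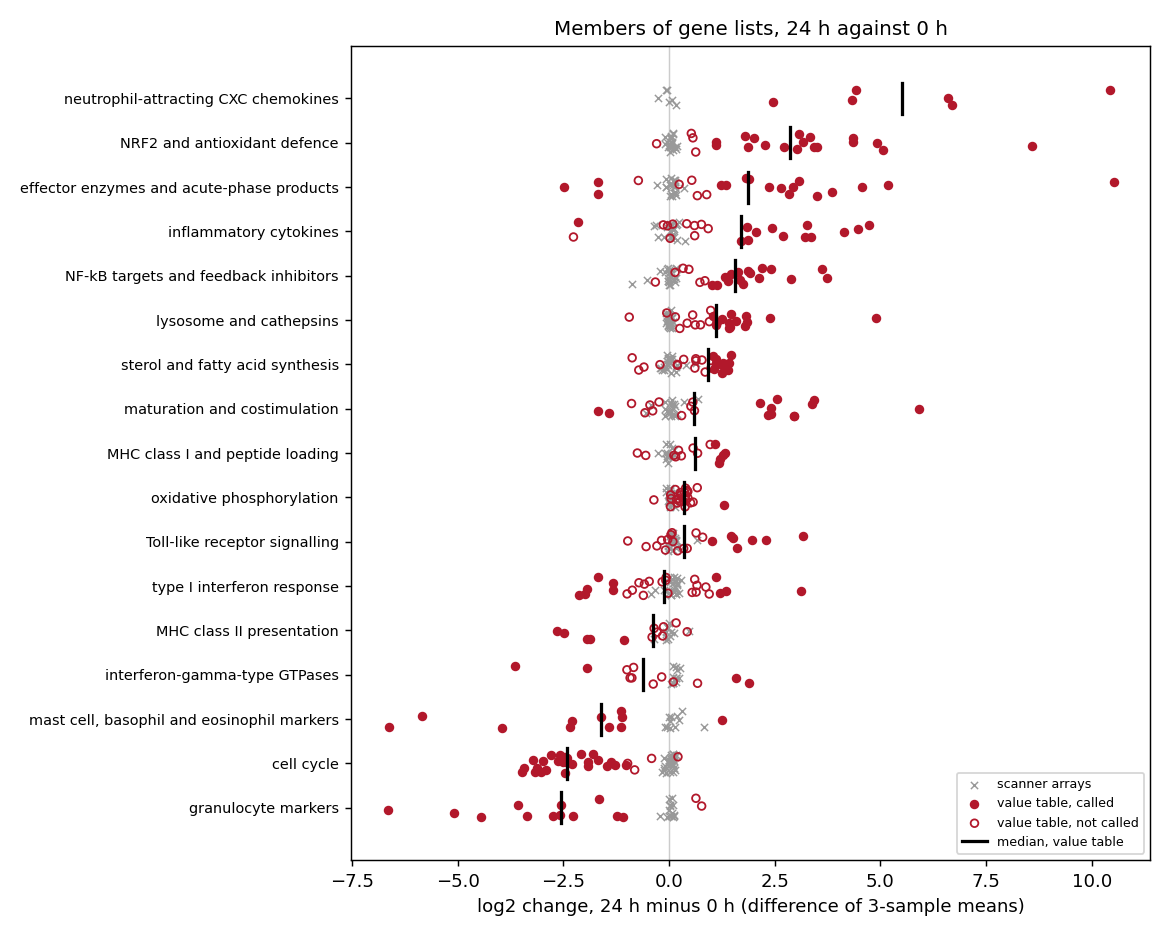
Log2 change at 24 h against 0 h for the members of 17 gene lists, each point 1 gene: filled red, called in the value table; open red, not called there; grey crosses, the scanner arrays; black bars, list medians in the table. NF-κB, NRF2 and neutrophil chemokine genes lie to the right and cell cycle and granulocyte genes to the left in the table, and the crosses lie near 0 in every list.

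Cell cycle genes fell as a group. Of 30 tested, 26 were called lower and none higher, with a median of -2.42, and the count lay between 23 and 27 under the other settings. Ccnb2, a cyclin of mitotic entry, stood at 0.109, 0.111 and 0.112 against 0.989, 1 and 1, a fall of 8.99-fold (log2 change -3.17 ± 0.0678, limma adjusted p = 6.92e-11). Its values at 24 h were almost equal, below means of 0.514 at 6 h and 0.266 at 12 h. The kinetochore motor Cenpe fell 11.1-fold and the spindle motor Kif11 10.8-fold. Ccnb1, the main mitotic cyclin, fell 5.49-fold, and Cdk1, its kinase, 3.80-fold. Pcna, a replication clamp, had a change of 0.21, and the licensing factor Cdt1 one of -0.41, and neither was called. Against 12 h, 4 of the 30 were called lower, beside 3.17% of all genes. The inhibitor of cyclin-dependent kinases Cdkn1c, also known as p57, stood at 66.0, 65.5 and 72.8 against 0.835, 1.15 and 1, and was called higher than at 12 h, when its mean was 9.80.

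The promoters of Ccnb1, Ccnb2 and Cdk1 are shown for the spaced CCAAT boxes that promoters of mitotic genes are known for. CCAAT was searched on both strands and is in capitals, as ATTGG where it lies on the other strand. Bases 110 to 11 before the start are given along the gene, which lies on the minus strand of GRCm38.p6 in each. Ccnb1 and Cdk1 were chosen after their values were seen.
Ccnb1, chr13:100786497-100786596: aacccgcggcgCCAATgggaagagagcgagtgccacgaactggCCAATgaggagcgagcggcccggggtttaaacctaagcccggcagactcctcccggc
Ccnb2, chr9:70421565-70421664: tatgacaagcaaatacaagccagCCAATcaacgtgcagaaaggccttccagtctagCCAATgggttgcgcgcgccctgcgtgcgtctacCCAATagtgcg
Cdk1, chr10:69352923-69353022: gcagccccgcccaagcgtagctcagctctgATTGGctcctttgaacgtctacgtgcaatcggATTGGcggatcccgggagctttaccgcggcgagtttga
The boxes of Ccnb2 begin 87, 54 and 21 bases before the start, those of Ccnb1 99 and 67, and those of Cdk1 80 and 48. The motif CCAAT was in 18 of 23 windows of the members called lower (78.3%), in 41.6% of windows of all genes called lower and in 37.4% of all windows. It was in 74.1% of the windows of all tested members, so the share describes the list. The motif TTTGAA, the cell cycle homology region, was in 39.1% of the windows of the members called lower and in 33.3% of those of all tested members. It was in 12.6% of the windows of genes tested and in 17.9% of all.

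Uptake receptors moved far in both directions, with 10 of 23 higher and 7 lower. Marco, a scavenger receptor that binds bacteria and particles, stood at 188.1, 180.0 and 191.6 against 1.05, 1 and 0.978, a rise of 7.53 ± 0.063 (SE, limma adjusted p = 4.89e-13). The pattern receptors Clec4e and Clec4d rose 56.8-fold and 29.5-fold. Clec10a, a lectin for galactose sugars, stood at 0.0289, 0.0269 and 0.0280 against 1, 0.976 and 1.03, a fall of 35.9-fold. Cd209a, the closest relative of DC-SIGN on these cells, stood at 0.0283 in 1 column and at the lowest ratio, 0.01, in the other 2, so its fall is a lower limit. Mgl2, the paralog of Clec10a, and Cd209c and Cd209d, paralogs of Cd209a, also stood at or next to that ratio in all 3 columns. Probes of such paralogs may read each other's transcripts, which was not tested. Axl, Mrc1, the mannose receptor gene, and Fcgr1, a high-affinity antibody receptor, fell by 2.30, 1.58 and 2.20 on the log2 scale.

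The other genes at or next to the lowest ratio in the 24 h columns were Asgr2, Cyp2s1, Il1rl1, Lifr, Akr1c18, Epx and Ms4a3. With Mgl2, Cd209c and Cd209d these are the 10 largest falls, at log2 changes from -6.67 to -6.61, where the floor of the table sets the size. Il1rl1 encodes the interleukin-33 receptor and Lifr the receptor of leukaemia inhibitory factor. Ccr2, a chemokine receptor of monocytes, was above that floor, at 0.0176, 0.0180 and 0.0179 against 1.01, 1 and 0.996, a fall of 56.3-fold (log2 change -5.81 ± 0.0498, limma adjusted p = 4.89e-13). Its columns lay at an almost constant ratio, and its mean had been 0.0628 at 6 h. Cish, a feedback gene of cytokine signalling through STAT5, which GM-CSF engages, fell 59.7-fold. In the list of signalling brakes and interferon regulators 6 of 21 rose and 7 fell. Dusp4, a phosphatase that switches off MAP kinases, stood at 100.2, 105.2 and 107 with a probe not above background on any array at 0 h, and the immediate early gene Egr1 fell 8.84-fold.

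Other large rises were those of Lox, the collagen crosslinking enzyme, Gpr162, an orphan receptor, Cck, a gut and brain peptide hormone, Ms4a7, a membrane protein of macrophages, and Clu, a secreted chaperone. Clu stood at 89.2, 97.8 and 97.5 against 1, 0.985 and 1.12, a rise of 6.52 ± 0.0638. It had stood at 3.36 at 6 h and 51.0 at 12 h, so most of its rise came after 6 h. Gpr162 stood at 174.1, 179.1 and 181.6 against 1.42, 0.964 and 1. Lox stood at 474, 468.3 and 498, without a level above background at 0 h on any scanner array.

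Identity markers of dendritic cells moved in both directions, with 5 of 18 higher and 5 lower, and 3 higher with quantile normalization. Flt3, the receptor that drives dendritic cell development, stood at 14.3, 16.1 and 18.7 against 1.10, 0.435 and 1. Its columns at 24 h all lay far above those at 0 h. Irf8, a factor of the cDC1 lineage, rose 3.45-fold. Irf4, a factor of cDC2 and of monocyte-derived cells, fell 8.54-fold. Itgae, the integrin CD103, fell 14.2-fold. Whether these changes follow a lineage was not tested. Itgax, encoding CD11c, stood at 0.608, 0.603 and 0.625, and Zbtb46 had a change of -0.21. Neither was called. Among class II antigen presentation genes 5 of 12 fell and none rose. Ciita, the master activator of class II genes, fell 3.63-fold, and the peptide loading genes H2-DMa and H2-Ob 5.61-fold and 6.25-fold, H2-Ob with a probe above background on 2 of 3 arrays at 0 h. H2-Ab1, a class II chain, stood at 0.736, 0.777 and 0.791 and was not called, and its probe was saturated on all scanner arrays at 0 h. Class I genes had 5 of 14 higher and none lower, led by B2m, the shared light chain, at 2.52-fold. With quantile normalization 1 of these was called.

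Markers of other cells a marrow culture can hold moved as well. In RNA of a whole culture, fewer cells of a type and less RNA per cell cannot be told apart. Of 14 granulocyte markers 12 fell and none rose, with a median of -2.56. Elane, neutrophil elastase, stood at 0.0353, 0.0309 and 0.0239 against 0.889, 1 and 1.12, a fall of 33.8-fold, and Mpo, myeloperoxidase, fell 21.9-fold. S100a8 and S100a9, the most abundant neutrophil proteins, fell by 1.09 and 1.22. Of 11 markers of mast cells, basophils and eosinophils 10 fell, among them Prg2, eosinophil major basic protein, 57.5-fold, and Siglecf 15.4-fold. Kit, a receptor of mast cells and progenitors that is also on the dendritic cell list, rose by 1.26. With quantile normalization 7 of the 11 were called lower and none higher, and with slide as a block 8 were lower. Of 18 macrophage markers 4 rose and 7 fell. Cx3cr1 rose 13.4-fold and Gpnmb 8.61-fold, the complement gene C1qb fell by 2.31, and Adgre1, encoding F4/80, had a change of 0.88 and was not called. Among 10 stromal markers 5 rose and 1 fell, with a median of 1.04. Of these 10, 7 were above background on every scanner array at 0 h. Without the background filter 7 of 15 rose and 2 fell, with a median of 0.54. Dcn, decorin, stood at 44.0, 40.6 and 45.3 and Lum, lumican, at 7.69, 9.17 and 9.81, neither above background on any array at 0 h, and Pecam1, an endothelial and myeloid adhesion gene, fell 24.6-fold. Over all genes 13.3% were called higher and 13% lower. Of 15 T, B and natural killer cell markers 1 rose and 2 fell, and of 7 erythroid and megakaryocyte markers 3 rose and 3 fell. With slide as a block the latter were 1 and 2, with a median of 0.23 in place of -0.58, and with quantile normalization 1 rose.

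The scanner gives the levels of these lists at 0 h, as sums in units of the array's 75th percentile. Granulocyte markers summed to 376 to 386 at 0 h, all 14 above background on every 0 h array, and to 381 to 390 on the arrays labelled 24 h. Mast cell, basophil and eosinophil markers summed to 45.9 to 46.8 and to 50.7 to 50.8. T, B and natural killer cell markers summed to 5.61 to 5.76 and to 5.96 to 6.06, with Blk, Gzma, Ncr1 and Pax5 above background on no array. Stromal markers summed to 53.3 to 53.9 and to 54.2 to 55.5, with Col1a1, Col3a1, Cxcl12 and Pdgfra above background on no array. Macrophage markers summed to 690 to 713 and to 692 to 711, all 18 above background on every 0 h array. The dendritic cell markers summed to 442 to 465 and to 444 to 452, with 17 of 18 above background on every 0 h array. Markers of the labelled cell type were thus detected at 0 h. That sum includes H2-Ab1, whose probe was saturated on all scanner arrays at 0 h. Clec9a was above background on no array at 0 h. The part of other cells in the changes of the table was not tested.

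Against the sample nearest in time, the table's 24 h columns still differed. Of all genes 841 were called between 24 and 12 h (4.57%), 257 higher (1.4%) and 584 lower (3.17%). The median gene changed by -0.13 as deposited and by 0.05 with median centring, where 420 were called higher and 377 lower. With quantile normalization 270 were called. Against 6 h, 2808 genes were called (15.3%), 1220 higher (6.63%) and 1588 lower (8.63%). Plekhs1, a gene of little known function, stood at 49.5, 50.5 and 58.5 at 24 h after means of 0.893 at 6 h and 6.58 at 12 h, a log2 rise over 12 h of 3.00 ± 0.0933 (limma adjusted p = 2.91e-08). Its rise was thus late. Arg1 had fallen to means of 0.0479 at 6 h and 0.0358 at 12 h and stood at 0.323, 0.315 and 0.302 at 24 h, higher than at 12 h by 3.13 ± 0.094 yet below 0 h. Itga6, a laminin receptor chain, went from 0.403 at 12 h to 1.90 and Cnrip1, which binds a cannabinoid receptor, from 0.830 to 5.23. Clec9a, a receptor for dead cells on cDC1, was called higher than at both 12 and 6 h, with 2.79, 3.44 and 3.19 at 24 h, although its probe was not above background on any array at 0 h. Apol7c, of the apolipoprotein L family, went from 77.4 at 12 h to 8.20 ± 0.459 (SD) and Tnfrsf13c, encoding the BAFF receptor, from 0.931 to 0.106.

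**Figure D4:**
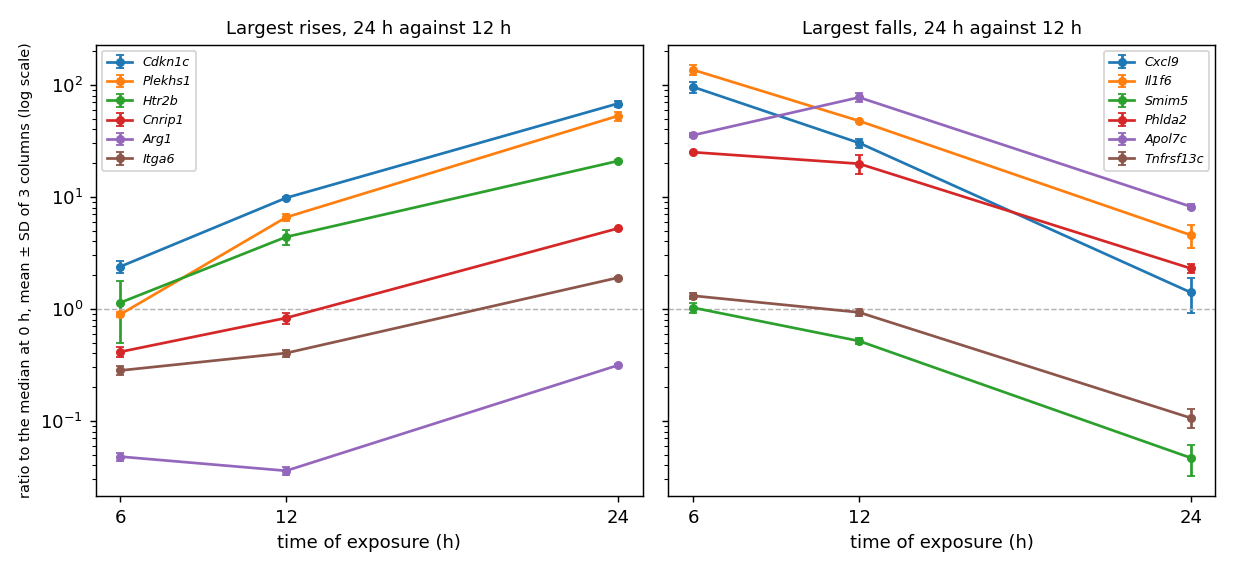
Ratio to the median at 0 h (log axis, mean ± SD of 3 table columns) at 6, 12 and 24 h for the 6 largest rises (left) and falls (right) between 12 and 24 h; the dashed line marks 1. Cdkn1c climbs from 2.39 to 68.1 while Cxcl9 comes down from 95.8 to 1.40.

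On the scanner, large rises at 24 h against 0 h included those of Kank1, Hmgcll1, Dpp10 and Lce1g. These were not well above background on any array at 0 h, so no fold is given. With slide as a block the scanner changes of Hmgcll1, Dpp10 and Lce1g turned to -0.83, -0.45 and -0.90. Zfp317, a zinc finger gene, was lower by 1.78 ± 0.161 on the log2 scale on the scanner (limma adjusted p = 0.00179), and its change in the table was 0.23. Calm4, Ido2, Olfr1143 and Olfr401 were also called lower on the scanner. Calm4 and Ido2 were not above background at either time there, and Olfr1143 and Olfr401 not on all arrays at 24 h. In the table, over the other settings and left-out columns, Calm4 changed by 4.19 to 5.18 and Ido2 by 1.93 to 2.62. Olfr401 changed there by 0.74 to 2.54 and Olfr1143 by -0.17 to 1.63. For the genes that led the table the scanner gave small values, such as 0.14 ± 0.0887 for Saa3, -0.08 ± 0.137 for Cxcl5, 0.06 ± 0.0633 for Il6 and -0.14 ± 0.138 for Ccr2.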

How the data were processed

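RNA of each sample was hybridised to 1-colour Agilent arrays and read with Feature Extraction 9.1.3.1, per the file headers. The authors' deposited value table holds a linear ratio per probe, set to the probe's median at 0 h. Both the centring and the direction were found from the values, and the lowest ratio is 0.01. Nothing in the sources used here gives the scaling between columns or the genome build. The deposited scanner files hold background-corrected spot intensity. It was used as log2 minus each array's 75th percentile, beside the table. Control spots and outlier flags were left out.

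Probes were named by accession through RefSeq's GRCm38.p6 table, which matched 22951 of 25510 mRNA accessions. Each gene kept its brightest probe among those well above background on every array of a group. limma 3.58.1 in R 4.3.3 was fitted on log2 ratios of all 12 samples with 4 group means (8 residual degrees of freedom) and was tested on simulated data. Errors after ± are SE for log2 changes and SD for mean ratios. The number of arrays limits the precision.

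Members and gene lists were chosen with earlier results of these data known. Genes named by rule were the 15 largest rises and 10 largest falls at 24 h, the 6 largest each way against 12 h and the 5 each way on the scanner. Up to 4 called members per list and direction, and a list of fixed genes, were added. Other list members, such as Nqo1, Hmox1, Ppbp and Cd274, were named after their values were seen. A gene that the rule names on the scanner is not reported here. Settings tried were column scaling, background filter, probe choice, lowest ratios, slide and replicate blocks, samples in the fit and each sample left out. Normexp correction used median signals and was chosen after seeing the data.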

Additional observations from a re-analysis of the deposited data

How the results depend on the processing

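The counts at 24 h against 0 h in the table moved little when 1 sample was left out (4747 to 4828 called, 2357 to 2496 higher and 2313 to 2433 lower). Against 12 h they were 814 to 1025 (242 to 329 higher, 540 to 696 lower) and against 6 h 2746 to 2913 (1185 to 1350 higher, 1526 to 1682 lower). Quantile normalization gave 3167 called with 1412 higher against 0 h, 270 called (94 higher, 176 lower) against 12 h, and 1647 called with 821 lower against 6 h. Median centring gave 420 higher and 377 lower against 12 h. The table's change of Olfr1143 was -0.17 with slide as a block. On the scanner, leaving out 1 array gave 24 to 48 called (19 to 39 higher, 5 to 14 lower). Normexp correction gave 8 (2 higher, 6 lower), no background filter 96 with 69 higher, and only the compared groups in the fit 393 (316 higher, 77 lower). Slide as a block gave 23 (9 higher, 14 lower), and scanner changes turned there for Hmgcll1 (-0.83), Dpp10 (-0.45) and Lce1g (-0.90). The cause was not tested.

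With the replicate number as a block the table gave 4852 calls (2456 higher, 2396 lower) and the scanner 86 (71 higher, 15 lower). Samples of the same number did not deviate together (correlations of -0.021 to 0.013 in the table and -0.025 to 0.013 on the scanner). Correlations between different numbers were also near 0. With 3 samples per group, this check cannot tell whether samples of the same number came from the same experiment. Weak probes limit both sources, since a ratio to a level near background at 0 h has no bound here.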

Other observations

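Other gene groups of the table moved in part. Of 19 genes of matrix metalloproteinases and matrix, 9 rose and 3 fell at 24 h against 0 h. Mmp14, a membrane protease, rose by 4.69 on the log2 scale and Mmp2, a gelatinase, by 3.63, while Fn1, fibronectin, fell by 2.43 and Timp3, a protease inhibitor, by 2.16. Of 20 genes of ER stress and the amino acid response, 4 rose and 4 fell, beside 13.3% of all genes higher and 13% lower. The stress factor Atf3 rose by 2.96 and Slc3a2, a heavy chain of amino acid transporters, by 1.83, while Slc7a5, a light chain that pairs with it, fell by 2.65 and Xbp1, a factor of the unfolded protein response, by 2.04. Of 21 cell death regulators 5 rose and none fell, with a median change of 0.19 beside 0.12 over all genes. That count was 3 with quantile normalization and 8 with slide as a block, where the median was 0.75.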
